A study of Mus musculus with 2 samples.

Results

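The genes described here are 9 that mark cholangiocytes, the cells lining bile ducts, or bipotent liver progenitors, out of 21887 protein-coding genes in RefSeq GRCm38.p6: Sox9, Hes1, Krt7, Krt19, Epcam, Cd24a, Prom1, Spp1 and Pkhd1. They were taken by name, with earlier results of these data known. Every Hnf4a summit inside each gene or within 50 kb of its ends was collected. The summits come from ChIL-seq, an antibody-directed transposition assay for chromatin proteins, performed on iHepCs. These are hepatocyte-like cells, obtained when retroviral vectors for Foxa2 and Hnf4a were put into embryonic fibroblasts of wild-type C57BL/6J mice. There is 1 group of 2 libraries, and all of these cells carry both introduced factors, so the antibody meets introduced Hnf4a together with any made by the cells' own gene. Growth was in a medium with dexamethasone, hepatocyte growth factor and epidermal growth factor, and the peak names give both libraries the same cell lot. No control or unconverted fibroblast library was used here and no expression was measured in these files, so whether the cells express the 9 genes is unknown. The values are the authors' score for each summit, the −log10 of its q-value, called in each library separately. With 1 group no test between conditions exists, and no p-value is given.

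In the embryonic liver, hepatoblasts give rise to both hepatocytes and cholangiocytes. Hnf4a, a nuclear receptor, is a main regulator of the hepatocyte branch, whereas Notch signalling, its target Hes1 and the transcription factor Sox9 act in the duct branch. Keratins 7 and 19, Epcam and osteopontin (Spp1) are used to recognise duct cells, and Prom1 and Cd24a are used to isolate progenitors.

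Hnf4a summits lay near most of these genes, as they did near most protein-coding genes. None of the sites found in both replicates lay inside one of the 9. Summits of both replicates within 100 bp of each other were counted as 1 shared region. Of the 9 genes, 5 had such a region within 50 kb (Sox9, Hes1, Krt19, Epcam and Cd24a), with 7 regions between them, while 47.9% of all protein-coding genes had one. At least 1 summit of replicate 1 lay in the windows of 8 genes and of replicate 2 in those of 7, beside 70.2% and 73.4% of all genes. Spp1 alone had no summit of either replicate, which was also so for 20.6% of all protein-coding genes. With 9 genes, these counts stand near the background. Inside the gene, 0 of the 9 had a shared region, against 13.7% of all genes. That is also near the background for 9 genes, and no share inside genes of matching length was counted. Within 10 kb 3 of 9 had one (Hes1, Krt19 and Cd24a), against 26.0%. Within 100 kb, 7 of 9 had one, against 62.6%. Width matters for such counts, and a split by length was added after the data were seen. Of the 9 genes, 7 are under 20 kb long. Of these 7, 5 had a shared region within 50 kb, against 42.0% of all genes under 20 kb. The split leaves out Prom1 and Pkhd1, both without a shared region there.

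**Figure D1:**
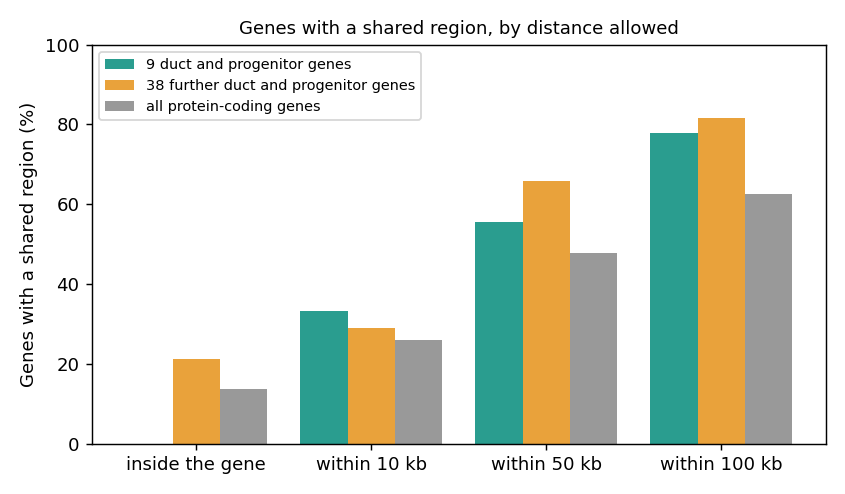
Share of genes (%) with a shared region inside the gene or within 10, 50 or 100 kb of it, as bars for the 9 duct and progenitor genes, the 38 further genes of the list described at the end, and all protein-coding genes. The 9 genes have none inside, against 13.7% of all genes, and at 50 kb stand at 55.6% against 47.9%.

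Counted per length, the 9 windows together span 1.623 Mb and held 20 summits of replicate 1, 18 of replicate 2 and 7 shared regions. That is 12.3 and 11.1 summits and 4.31 shared regions per Mb, against 10.4, 11.6 and 4.51 per Mb over the windows of all protein-coding genes. Pkhd1 alone makes up 0.6603 Mb of this length with 1 summit. Without it, a split made after the values were seen, the other 8 windows held 19.7 and 18.7 summits and 7.27 shared regions per Mb. No density was counted over genes of matching length, so these last figures are not read as an excess.

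**Figure D2:**
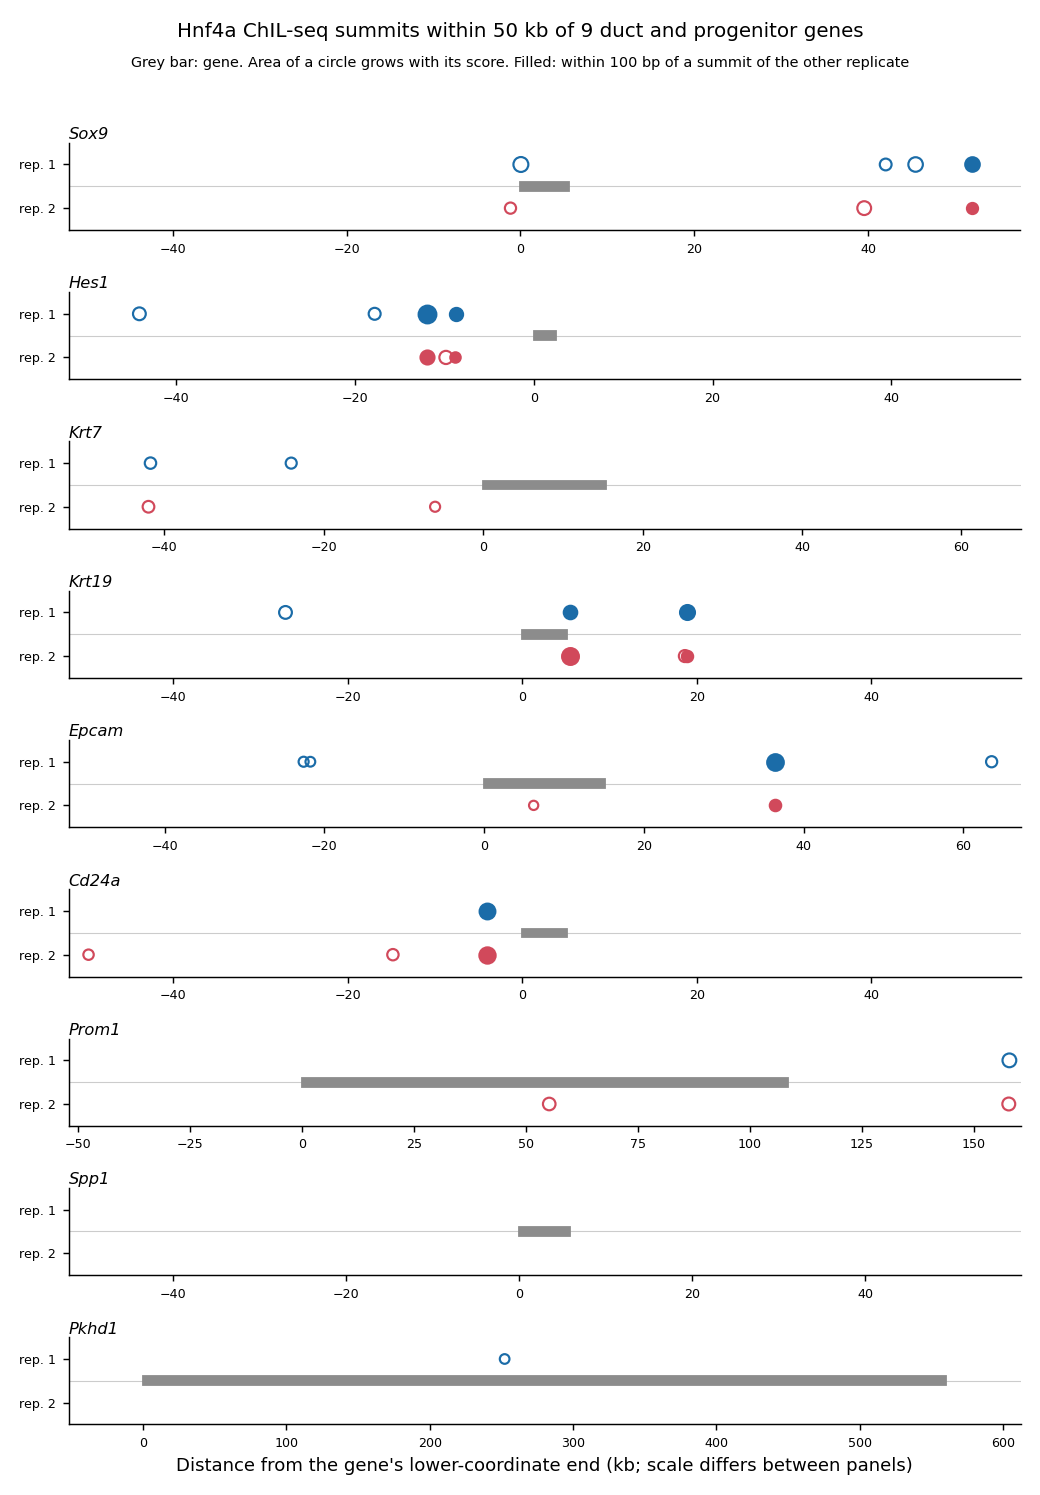
Summits within 50 kb of each gene, by distance (kb) from the end with the lower coordinate; the grey bar is the gene, replicate 1 is above it and replicate 2 below. Filled circles are shared within 100 bp. All 7 shared regions lie outside the grey bars, and Spp1 has no circle.

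Start-site sequence was in the RefSeq promoter table (GRCm38.p6) for 5 of the 9 genes, as 7 windows of 250 bases before to 50 after an annotated start: Krt7, Epcam, Prom1, Spp1 and Pkhd1. Sox9, Hes1, Krt19 and Cd24a were not matched, and all of these had a shared region within 50 kb. Replicate 1 had a summit 44 bp inside one end of Sox9. Beyond one end of Krt19, replicates 1 and 2 had summits at 401 and 351 bp. None of the 7 windows held a summit of either replicate. The windows are printed because they differ widely in CpG content, with which summits at promoters varied across the genome. One window per gene is given on the strand of the gene, 5′ to 3′, with each CpG in capitals: Krt7 (chr15:101412153-101412452, plus strand), Epcam (chr17:87635729-87636028, plus), Prom1 (chr5:44101687-44101986, minus), Pkhd1 (chr1:20618008-20618307, minus) and Spp1 (chr5:104434861-104435160, plus).
Krt7: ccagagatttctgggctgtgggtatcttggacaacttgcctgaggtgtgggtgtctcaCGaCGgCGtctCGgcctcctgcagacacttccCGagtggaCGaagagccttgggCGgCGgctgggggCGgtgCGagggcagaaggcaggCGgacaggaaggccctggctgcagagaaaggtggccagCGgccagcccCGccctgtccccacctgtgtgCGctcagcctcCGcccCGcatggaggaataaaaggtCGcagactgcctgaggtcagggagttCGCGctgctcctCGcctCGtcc
Epcam: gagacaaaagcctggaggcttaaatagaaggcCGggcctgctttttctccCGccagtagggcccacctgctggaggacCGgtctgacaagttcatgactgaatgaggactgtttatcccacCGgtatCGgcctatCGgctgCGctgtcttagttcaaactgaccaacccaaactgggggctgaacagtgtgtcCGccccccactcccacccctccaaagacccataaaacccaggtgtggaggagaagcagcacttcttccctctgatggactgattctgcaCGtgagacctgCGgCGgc
Prom1: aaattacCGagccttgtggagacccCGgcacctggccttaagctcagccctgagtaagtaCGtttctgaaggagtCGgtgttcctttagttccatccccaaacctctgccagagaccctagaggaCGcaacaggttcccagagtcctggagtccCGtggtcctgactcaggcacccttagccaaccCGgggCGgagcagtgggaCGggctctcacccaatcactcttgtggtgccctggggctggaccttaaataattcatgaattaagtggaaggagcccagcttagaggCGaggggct
Pkhd1: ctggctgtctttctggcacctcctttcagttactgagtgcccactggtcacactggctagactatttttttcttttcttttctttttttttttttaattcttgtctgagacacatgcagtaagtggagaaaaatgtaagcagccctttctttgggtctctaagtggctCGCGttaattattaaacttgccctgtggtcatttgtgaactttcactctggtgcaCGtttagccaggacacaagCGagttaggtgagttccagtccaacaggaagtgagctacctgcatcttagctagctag
Spp1: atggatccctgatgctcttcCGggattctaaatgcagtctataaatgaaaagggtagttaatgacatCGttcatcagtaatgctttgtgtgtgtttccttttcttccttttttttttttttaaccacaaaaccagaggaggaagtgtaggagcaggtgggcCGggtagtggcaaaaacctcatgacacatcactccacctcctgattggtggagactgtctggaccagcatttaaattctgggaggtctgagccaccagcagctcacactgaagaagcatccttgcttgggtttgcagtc

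The Krt7 window held 21 CpG and was 66.3% G and C, the highest of the 7. Epcam had 11 CpG and Prom1 10, while Pkhd1 had 4 and Spp1 3. The further windows of Prom1 and Spp1 had 4 and 3. The median over 21263 windows of protein-coding genes was 13 CpG. Across those windows, 9.77% held a summit of replicate 1 and 8.87% one of replicate 2. In classes set after the files were read, the shares were 0.845% and 0.497% with 0 to 4 CpG, 7.74% and 7.40% with 5 to 14, and 16.3% and 14.7% with 15 to 67. Of the windows of the duct and progenitor genes, 4 fall in the lowest class, 2 in the middle and 1, that of Krt7, in the highest. Most windows of every class were without a summit, so the absence at these 7 is near the background. It does not extend to Sox9, Hes1, Krt19 and Cd24a, whose start-site windows were not available.

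Both strands of the 7 windows were searched for short motifs, overlaps between motifs allowed. The HNF4 motif CAAAGTCCA was in none of the 7 and in 0.451% of all windows, and the direct repeat of AGGTCA with 1 base between was in none and in 0.047%. Neither FOXA (TGTTTAC, 3.01% of all windows), RBPJ, the DNA-binding partner of Notch (CGTGGGAA, 0.856%), nor TEAD (GGAATG, 13.6%) matched. The AP-1 motif TGANTCA, in 6.99% of all windows, was in both windows of Prom1 and in no other of the 7. In the printed Prom1 window its first base is at −88, counting the start site as 0. These are matches of letters in short windows, and the sequence under the summits themselves was not used here.

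Sox9, a transcription factor of duct cells and progenitors, lies on chromosome 11 at 112782210 to 112787757 and has no other protein-coding gene in its window. Replicate 1 placed 4 summits there, with scores of 10.0, 5.77, 9.44 and 9.44 in order of position, and replicate 2 placed 3, with 5.09, 8.41 and 4.99. The only shared region, at 112834195 to 112834205, was 46443 bp beyond the higher-coordinate end, with 9.44 in replicate 1 and 4.99 in replicate 2. At the other end the replicates did not meet. The summit of replicate 1 lay 44 bp inside the gene and that of replicate 2 1153 bp outside, 1197 bp apart. The table used gives no strand for Sox9, so which end holds the start is not stated here. Just past the limit of 50 kb, at 53224 bp beyond the higher-coordinate end, lay another region of both replicates, with 16.7 in replicate 1 and 12.4 in replicate 2.

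Hes1, a basic helix-loop-helix repressor induced by Notch, lies on chromosome 16 at 30065357 to 30067796. It had 4 summits in replicate 1 and 3 in replicate 2, all below its lower-coordinate end and all closer to it than to any other protein-coding gene. The replicates met at 30053394 to 30053397, 11962 bp from the gene, where the summits were 3 bp apart and scored 14.7 in replicate 1 and 8.68 in replicate 2. A further shared region 8769 bp from the gene scored 7.52 and 4.21, with its summits 98 bp apart, close to the limit for sharing. Between these regions replicate 2 had a summit of 7.56 with no counterpart, and farther out replicate 1 had summits of 5.97 and 7.03. Together with the region at 55764 bp (11.9 and 17.5) and another at 95586 bp on the other side (10.5 and 14.4), Hes1 had 4 shared regions within 100 kb, the most of the 9 genes. The region at 95586 bp was nearer to Cpn2, at 92996 bp. The share of all genes with as many regions within 100 kb was not counted. Within 50 kb, at least 2 shared regions were found at 21.0% of all protein-coding genes.

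The keratins of duct epithelium differed. Krt19, on chromosome 11 at 100140810 to 100145926, had the closest shared region of the 9 genes, at 100146277 to 100146327, 376 bp beyond the higher-coordinate end. This site scored 7.93 in replicate 1 and 13.1 in replicate 2. A further shared region 13723 bp beyond the same end scored 10.0 in replicate 1 and 5.20 in replicate 2, and replicate 2 had another summit, 6.07, which was 206 bp from that of replicate 1. On the other side, replicate 1 alone had a summit of 7.03, which lay nearer to Krt13, a keratin of stratified epithelium, at 3663 bp. Farther out on that side, 73003 bp from Krt19 and nearer to Krt32, a shared region scored 15.9 in replicate 1 and 20.9 in replicate 2.

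Krt7, on chromosome 15 at 101412403 to 101427806, had no shared region within 50 kb. Its 4 summits were all upstream of the start, with scores of 5.34 and 4.93 in replicate 1 and 5.64 and 3.85 in replicate 2. The closest, the 3.85 summit of replicate 2, lay 6036 bp from the start. The 5.34 and 5.64 summits lay 251 bp apart at 41740 and 41991 bp upstream, just 501 and 250 bp from Krt80, another keratin gene. The nearest shared region was 92972 bp away on the other side and closer to Krt84, a hair keratin gene.

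Among surface proteins, Cd24a, a small glycoprotein anchored in the membrane, had the only one of the 7 shared regions within 50 kb that scored above the median of all shared regions in both replicates. It lay at 43575122 to 43575130 on chromosome 10, 4043 bp below the gene (43579169 to 43584265), and scored 11.3 in replicate 1 and 12.2 in replicate 2. Replicate 2 had further summits of 5.29 at 14838 bp and 4.21 at 49726 bp, where it falls inside Mtres1. Epcam, an epithelial cell adhesion molecule, lies on chromosome 17 at 87635979 to 87651127. Its shared region, with 12.7 in replicate 1 and 5.33 in replicate 2, lay 21279 bp past its end and only 126 bp from another gene. The other summits of Epcam within 50 kb scored 3.83, 3.52 and 5.04 in replicate 1 and 3.04 in replicate 2. The 5.04 summit lay inside that other gene. The 3.04 summit was inside Epcam, 6203 bp after the start, and its score was at or above only 4.99% of its list. Beyond the limit, 64244 bp upstream, a shared region for which Epcam was the nearest gene scored 12.8 in replicate 1 and 14.5 in replicate 2.

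Prom1, the membrane protein also known as CD133, lies on chromosome 5 at 43993621 to 44102047 and had no shared region. Replicate 1 had a summit of 8.36 and replicate 2 one of 7.16 about 50 kb upstream of the gene, 49521 and 49386 bp beyond its end. They missed the limit for sharing, being 135 bp apart, and the predicted gene Gm42427 was nearer. Replicate 2 alone had a summit inside Prom1, 6.76 at 44048869. The nearest shared region was 182758 bp from the gene.

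Spp1, the secreted phosphoprotein osteopontin, on chromosome 5 at 104435111 to 104441053, had no summit within 50 kb. The next beyond that limit were 11.3 in replicate 1 and 7.45 in replicate 2, which formed a shared region 54268 bp upstream, nearer to Mepe. Pkhd1, which encodes the ciliary protein fibrocystin and causes recessive polycystic kidney disease when mutated in humans, spans 560304 bp on chromosome 1 from 20057779 to 20618082. Its window of 660.3 kb held a single summit, 3.43 in replicate 1 at 20310043, and that score was at or above only 7.30% of its list. The nearest shared region was 202347 bp away. For comparison, 59.4% of genes of 300 kb or longer had a shared region inside or within 50 kb.

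**Figure D3:**
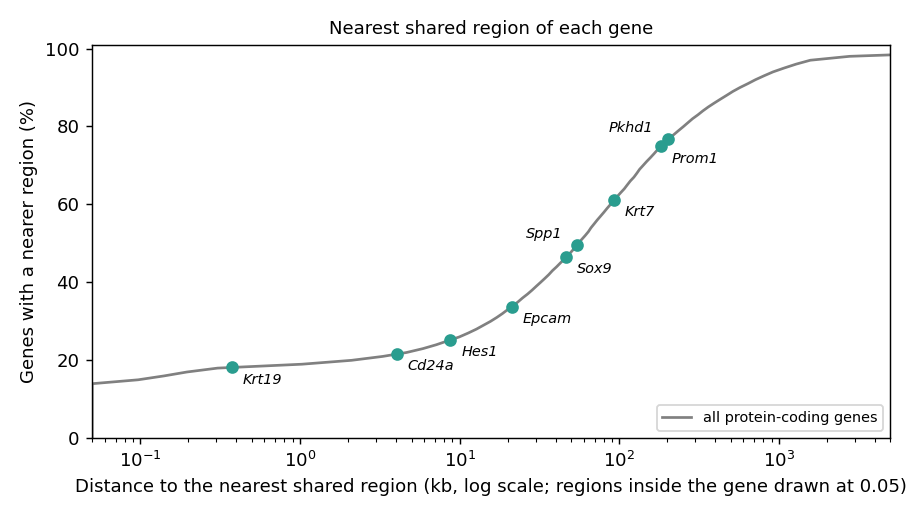
Distance (kb, log scale) from each gene to its nearest shared region against the share of all protein-coding genes with a nearer one (%); the line is all genes and points are the 9 named genes. They run from 0.376 kb at Krt19 to 202 kb at Pkhd1, along most of the range of other genes.

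Over all genes, 81.8% had their nearest shared region at least as far away as that of Krt19, 78.4% as that of Cd24a and 74.8% as that of Hes1. The figures were 66.2% for Epcam, 53.5% for Sox9 and 50.4% for Spp1. They were 38.9% for Krt7, 25.1% for Prom1 and 23.3% for Pkhd1.

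Scores at the 7 shared regions were near the middle of all shared regions in replicate 1, and most were below it in replicate 2. In replicate 1 they ran from 7.52 to 14.7 with a median of 10.0, beside a median of 9.93 over all 9193 shared regions. In replicate 2 they ran from 4.21 to 13.1 with a median of 5.33, beside 9.61 over all. The score was higher in replicate 1 at 5 of the 7 regions, and at 52.7% of all shared regions. The exceptions were the Krt19 region at 376 bp, with a log2 ratio of replicate 2 over replicate 1 of 0.73, and the Cd24a region, with 0.10. Epcam had the widest gap, a log2 ratio of −1.26. Scores were not scaled between libraries, and read depth is unknown from these lists.

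**Figure D4:**
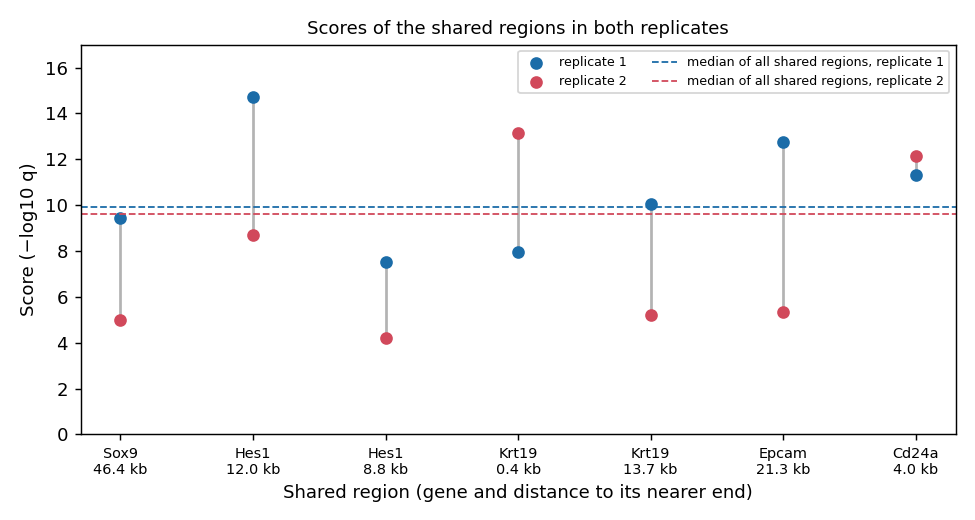
Scores (−log10 q) of the 7 shared regions in replicate 1 (blue) and replicate 2 (red), with dashed lines at the medians of all shared regions. Only the Cd24a region, at 11.3 and 12.2, lies above both medians.

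Of the 20 summits of replicate 1 near these genes, 7 (35.0%, 95% exact binomial interval 15.4 to 59.2) had a counterpart in replicate 2, against 43.2% of its whole list. Of the 18 summits of replicate 2, 7 (38.9%, 17.3 to 64.3) did, against 38.2% of the list. The intervals cover counting error only and treat summits as independent, although they lie in the windows of 9 chosen genes. Both counts rest on the same 7 regions, so the intervals are no test against the whole lists. Median scores were 7.27 in replicate 1 and 5.49 in replicate 2 near these genes, against 7.32 and 6.67 in the whole lists. In each replicate, 14 of these summits had one of the 9 genes as the nearest protein-coding gene, and 6 of the 7 shared regions did, all but that of Epcam.

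A list of 38 further duct and progenitor genes was read in the same way. It was chosen with earlier results of these data known. Its counts and those of its groups are therefore descriptive and are no test of an excess over all genes. Of these, 25 (65.8%) had a shared region within 50 kb, against 47.9% of all protein-coding genes. By length, the share was 42.0% of genes under 20 kb and 59.4% of those of 300 kb or longer. The list mixes short and long genes, and no background of matching lengths was counted. The groups below hold 5 to 11 genes each, and their counts are to be read against the same 47.9%. Krt8 and Krt18, the simple epithelial keratins, are neighbours and share theirs. Transcriptional regulators had 2 of 7. Among them, Grhl2, an epithelial regulator, had a region at 40353 bp (9.53 in replicate 1 and 4.70 in replicate 2).

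Of the Notch pathway, 7 of 8 genes had a shared region within 50 kb, all but Hey1, against 47.9% of all genes. For several of them another gene was closer: the best region of Jag1, a Notch ligand, lay inside Slx4ip, that of Heyl inside Pabpc4 and that of Hey2 3299 bp from Ncoa7. The receptor gene Notch1 had 3, the best at 12426 bp and inside its neighbour Sec16a (40.4 in replicate 1 and 28.5 in replicate 2). Notch2, the receptor whose loss impairs bile ducts, had 4, the best inside the gene (22.5 and 18.2). Both scored above all 7 regions within 50 kb of the 9 genes in either replicate.

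Genes of duct transport and secretion had 6 of 7, against the same 47.9% of all genes. Slc10a2, the apical bile acid transporter, had a region at 24417 bp (33.1 in replicate 1 and 32.6 in replicate 2), and Ggt1, which cleaves glutathione, had its best at 43652 bp, inside Gucd1 (30.0 and 39.6). Of the cilium and cyst genes, 3 of 5 had one, among them Bicc1, an RNA-binding protein, at 25660 bp (27.3 and 22.5). Pkd2, which lies beside Spp1, had no summit of either replicate in its window. Surface and keratin genes had 7 of 11, with Cd44, the hyaluronan receptor, at 31347 bp (38.2 and 29.7, the best of 6 regions) and Cdh1, the epithelial cadherin, inside the gene (19.0 and 21.6). Pkd2 is named because it had no summit, which was known only from its values.

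Tnfrsf12a, the receptor of the cytokine TWEAK, which stimulates progenitors, was the only gene of either list, among those with a window in the table, with a summit of each replicate in its promoter window (chr17:23677400-23677699, minus strand, GRCm38.p6). Counted along the gene from the start site at 0, the summit of replicate 1 lay at −180 and scored 9.65, and that of replicate 2 lay at −12 and scored 6.16. They were too far apart to count as shared. The gene was picked for these positions after they were seen, and its window is printed to show where they fell, with the 5 bases around each summit in capitals.
Tnfrsf12a: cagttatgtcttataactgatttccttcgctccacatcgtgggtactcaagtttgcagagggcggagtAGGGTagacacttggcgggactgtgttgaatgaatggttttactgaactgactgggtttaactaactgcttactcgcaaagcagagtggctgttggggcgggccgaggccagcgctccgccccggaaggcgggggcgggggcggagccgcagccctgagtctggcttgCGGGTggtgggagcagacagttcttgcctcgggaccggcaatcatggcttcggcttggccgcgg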

How the data were processed

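Hnf4a binding was mapped by ChIL-seq in 2 libraries of iHepCs, grouped by their titles. Per the submitters' processing notes, fastp 0.23.4, HISAT2 2.0.5 and MACS2 2.2.9.1 were used with build mm10, whose assembly is that of GRCm38.p6. The deposited lists give 1-bp summits per library, 21283 in replicate 1 and 24097 in replicate 2, with the authors' score, the −log10 q-value. Per the file headers' peak names, the q threshold was 0.01, and the lowest scores were 2.04 and 2.01. Use of a control library or a duplicate filter is not stated there, and depth is unknown.

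Neighbouring summits up to 100 bp apart, from either list, were joined, and a joined region that held both replicates was shared. Regions were placed by their midpoint, relative to 21887 RefSeq protein-coding genes. Percentiles give the share of the same list at or below a score. Promoter windows came from the RefSeq table. The 9 genes and the list of 38 were chosen with earlier results of these data known. All 9 were named, and of the list the 2 genes per group with the best lower score of both replicates. Some genes that this rule names are not reported here. Pkd2, Tnfrsf12a and the Notch pathway genes beyond Notch1 and Notch2 were named outside it, after their values were seen, as were Krt8 and Krt18. Functions were tested on simulated data. Python 3.11.15, numpy 2.4.6, scipy 1.17.1 and matplotlib 3.10.9 were used. Alternatives covered the distance for sharing, the window, score thresholds, each replicate alone, the nearest gene only, the ranking rule and, added after seeing the data, genes of 1 length class as background.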

Additional observations from a re-analysis of the deposited data

How the results depend on the processing

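The count of duct and progenitor genes with a shared region followed the window. Inside the gene it was 0 of 9 with 0 regions, against 13.7% of all genes, and 8 of the 38 listed genes. With 10 kb it was 3 with 3 regions, against 26.0% and 11 of 38. With 100 kb there were 16 regions. The 10000 best-scored summits of each list left 3 genes and 3 regions, against 32.0% of all genes. Taking each replicate alone gave 7 to 8 genes, 18 to 20 summits in place of regions, 70.2% to 73.4% of all genes and 33 to 35 of the 38. Of the 45 alternatives, 30 stayed within 1.5 times the reported value, among them other distances for sharing, a score of 5 or more and the nearest gene only. With 1 replicate alone, 7 genes, 70.2% of all genes and 33 and 35 of the 38 also stayed within it. The 8 genes, 73.4% and the 18 and 20 summits did not. The nearest gene rule left 4 genes and 6 regions, and the worse of both ranks chose the same best region for all 5 genes. A distance of 200 bp added Prom1 and one of 500 bp also Krt7, giving 6 and 7 genes. The share of all genes rose as well, from 47.9% to 52.8% and 54.5%. No paired analysis was possible because there is 1 group. Read depth is unknown, a missing summit can reflect a score under the authors' threshold, and the lists hold no widths or counts.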
